A study of Mus musculus with 6 samples.

Results

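Myc, Max and Mxd network genes were compared in Tet1 KO and WT mouse LSK cells, which are bone marrow cells without mature lineage markers that carry Sca-1 and Kit and hold the haematopoietic stem cells and early multipotent progenitors. The 10 genes, Myc, Mycn, Max, Mxi1, Mxd1, Mxd3, Mxd4, Mnt, Mlx and Mga, were chosen by name, and all probe sets whose platform annotation gives exactly that 1 symbol were taken. This gave 26 probe sets of 45037 tested, and 10 genes of 18193. There were 3 Tet1 KO samples and 3 WT samples, each on 1 array. The cells were sorted from bone marrow, all mice were 6 months old, and the labels of both groups spell the strain CD57BL/6. Tet1 codes for a dioxygenase that converts methylated cytosine to its hydroxymethylated form. Neither the Tet1 allele nor any Cre driver is given in the sources used here, for any of the mice. The labels do not say whether replicates are different mice. In each group replicate 3 differed from the other arrays in Xist and Y-linked genes, so a group did not hold repeats of 1 RNA alone, but p-values here rest only on the spread among arrays, and how much of it is technical is not known.

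Max is a small basic helix-loop-helix leucine zipper protein at the centre of this network. It pairs with Myc or Mycn to activate genes of growth and ribosome building, and with Mxd1, Mxi1, Mxd3, Mxd4, Mnt or Mga to repress genes, so the activating and repressing proteins compete for Max and for the same DNA site, the E-box. Mlx is a Max-like protein that pairs with Mnt, with some Mxd proteins and with glucose-sensing Mondo proteins. In haematopoietic stem cells, Myc and Mycn are known for balancing self-renewal, survival and exit into differentiation, and Mxd proteins accompany the exit from the cell cycle.

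None of the 26 probe sets differed between Tet1 KO and WT at an adjusted p under 0.05 in limma, and 0 of 26 had an unadjusted p under 0.05. Over all probe sets 0 passed the adjusted threshold, or 0%, and 6.81% had an unadjusted p under 0.05. Myc read 0.38 lower on the log2 scale in Tet1 KO and Max 0.48 lower, with 95% intervals that hold 0 as did those of all 26. The 4 genes of the Mxd family, which encode repressors, were within 0.09 of WT at the brightest probe set of each. Over all 12 of their probe sets the differences ran from -0.38 to 0.44. The widest difference of the 26, -1.16, was at 1 probe set of Mlx, and it was -0.57 without WT replicate 3. Counts at the unadjusted threshold moved with single arrays: 2 of 26 passed without Tet1 KO replicate 1, against 10.3% of all probe sets in that fit. The fits without Tet1 KO replicate 2, Tet1 KO replicate 3 and WT replicate 2 each passed 1 of 26, against 8.01%, 8.61% and 3.48% of all probe sets in the same fits. In cells measured in bulk, fewer cells of a kind and less RNA per cell cannot be told apart.

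The network's binding site is shown because it occurs in the promoters of several of its own genes, a feature that the choice of genes did not use. The E-box searched was CACGTG, which reads the same on both strands. RefSeq promoter windows of build GRCm38.p6, from 250 bases before to 50 bases after a start of transcription, were found for 9 of the 10 genes, all but Myc, in 11 windows. The letters were present in 4 of the 11 windows, or 36.4%, against 7.15% of 32851 windows of all genes. Among the 14253 windows with at least 55.0% G and C, the lowest of the member windows, the share was 10.2%. The 4 sites are printed 5′ to 3′ on the strand of the gene, with the E-box in capitals and 12 bases on each side.
Max, chr12:76962234-76962263, minus strand: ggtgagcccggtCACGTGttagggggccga
Mxd4, chr5:34187912-34187941, minus strand: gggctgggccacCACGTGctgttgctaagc
Mnt, chr11:74830789-74830818, plus strand: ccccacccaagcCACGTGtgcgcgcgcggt
Mlx, chr11:101087238-101087267, plus strand: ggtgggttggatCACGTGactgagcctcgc
In Max the first base of the motif lay 3 bases before the start of transcription, so the site spans it. The distance was 40 bases before the start in Mlx, 123 in Mnt and 219 in Mxd4. The windows of Mycn, Mxi1, Mxd1, Mxd3 and Mga did not hold these letters, which says nothing about other sites or about binding.

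The arrays were comparable in scale but not alike. Values were log2 intensities as deposited, and array medians spanned 0.0694. A guide to background, the mean over arrays of the brightest bacterial control probe set, was 4.39. At each of the 4 Tet1 probe sets the Tet1 KO arrays were below the WT arrays with no overlap, with differences from -1.68 to -0.93 and a limma adjusted p of 0.686 for each. Where these probe sets lie relative to the deleted part is not known here. Of 13 LSK markers 11 were measured, Ly6a, which encodes Sca-1, not among them, and all 11 lay above the background guide on every array. The 4 with the smallest p were Gata2 at -0.66, Hlf at -0.50, Cd48 at -0.41 and Slamf1 at 0.78. Of the 11, 8 had a lower mean in Tet1 KO, against 43.5% of all genes and 67.4% of those with a mean of 8 or above. Together the 11 averaged 9.45, 9.31 and 9.47 on the Tet1 KO arrays, against 9.63, 9.53 and 9.40 on the WT arrays. Of 24 markers of blood lineages 19 were measured, 14 of them with a higher mean in Tet1 KO. Over all genes 56.5% were higher, and of those with a mean under 6 it was 76.6%. The 4 with the smallest p were Cd8a at 0.53, Ppbp at 0.84, Hba-a1 at 0.36 and Cd3g at 0.30. Over all 19 the mean log2 intensity was 5.89, 5.79 and 5.78 on the Tet1 KO arrays, against 5.59, 5.51 and 5.77 on the WT arrays. 7 of the 19, Hba-a1, Cd3g, Cd3e, Cd8b1, Ms4a1, Ncr1 and Adgre1, were under the background guide in both groups. The brightest of the 19 were Mpo, S100a9 and S100a8, which averaged 11.59, 9.13 and 9.02 over all arrays. The part of these markers in the results was not tested. Tet1 KO replicate 2 stood apart, with the brightest bacterial control at 4.87, against 4.21 to 4.37 on the other 5 arrays. It was the lowest of the 6 arrays at 9 of the 26 member probe sets and the highest at 8, and over all 45037 it was lowest at 11093 and highest at 16168. Tet1 KO replicate 3 and WT replicate 3 had low Xist and high Y-linked genes, 1 array in each group.

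**Figure D1:**
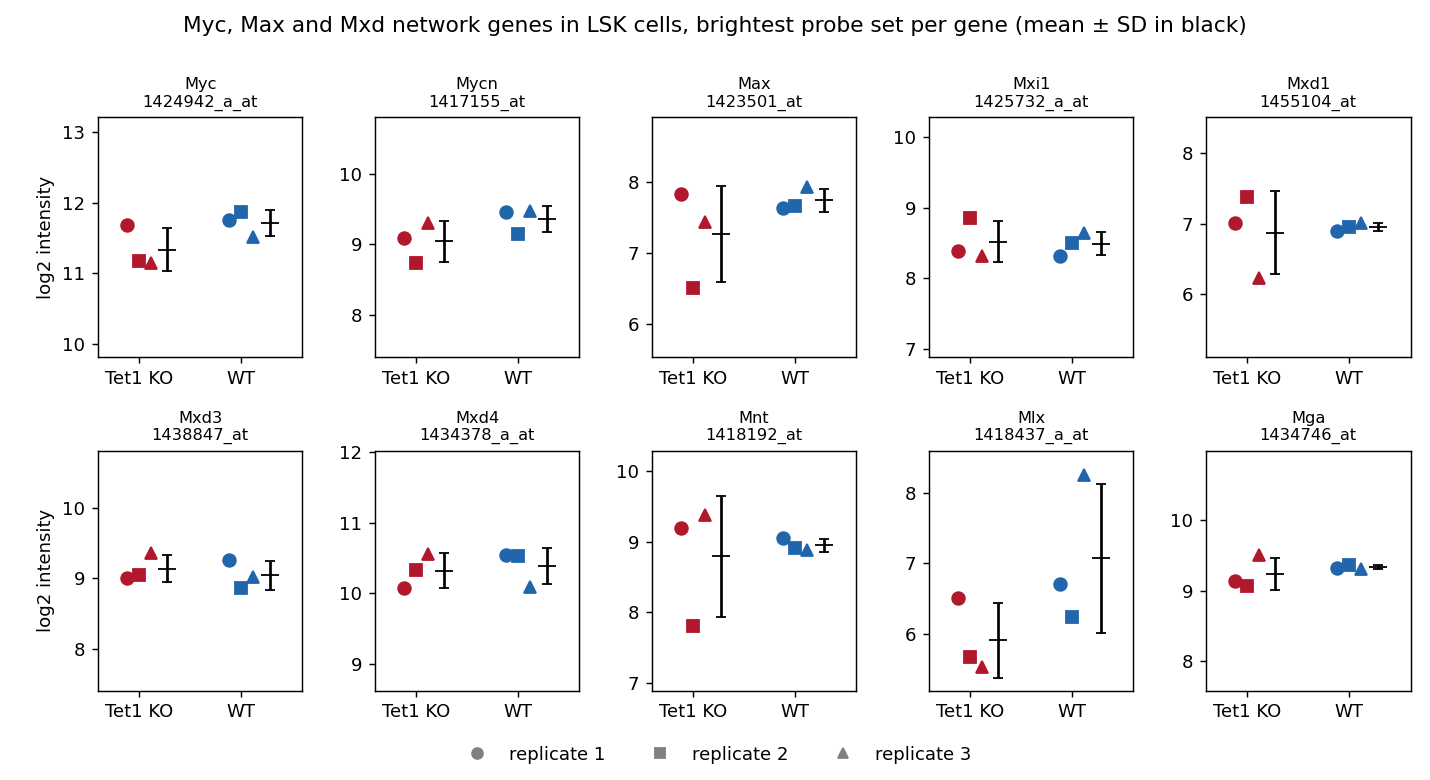
The log2 intensity of each of the 10 genes at its brightest probe set is plotted for the 3 Tet1 KO arrays (red) and the 3 WT arrays (blue), with mean ± SD in black and 1 marker shape per replicate number. Every panel spans the same number of log2 units, and levels are not comparable between probe sets. Both groups overlap in all 10 panels, and Tet1 KO replicate 2 lies far below the other arrays for Max and Mnt.

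The Myc family supplies the activating partners of Max. Myc lies on chromosome 15 (GRCm38.p6, 61985341 to 61990361) and has 1 probe set, 1424942_a_at. It read 11.68, 11.17 and 11.15 on Tet1 KO replicates 1, 2 and 3, against 11.75, 11.87 and 11.51 on WT replicates 1, 2 and 3. Replicates 2 and 3 of Tet1 KO were below all WT arrays, and replicate 1 lay within the WT range. The means were 11.33 ± 0.30 in Tet1 KO and 11.71 ± 0.18 in WT (SD, n = 3 each), a difference of -0.38 (SE 0.21, 95% interval -0.87 to 0.12) or 0.771-fold, with a limma adjusted p of 0.686 over all probe sets. Without Tet1 KO replicate 1 the difference was -0.55, with an unadjusted limma p of 0.0259 and an adjusted p of 0.486.

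Mycn, the paralogue that acts together with Myc in stem cells, lies on chromosome 12 (12936093 to 12941836) and has 3 probe sets that did not share a sign. The brightest, 1417155_at, read 9.09, 8.73 and 9.30 on the Tet1 KO arrays, against 9.46, 9.15 and 9.47 on the WT arrays. The groups overlapped, since Tet1 KO replicate 3 lay above WT replicate 2. The difference was -0.32 (SE 0.20, 95% interval -0.80 to 0.16), and it was -0.16 without Tet1 KO replicate 2. The other Mycn probe sets gave -0.15 and 0.19. The one with 0.19 averaged 4.59 in Tet1 KO and 4.40 in WT, close to the background guide.

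Max, the shared partner, lies on chromosome 12 (76937269 to 76962323), holds the E-box printed above at its start, and has 1 probe set, 1423501_at. It read 7.84, 6.51 and 7.44 on the Tet1 KO arrays, against 7.64, 7.67 and 7.93 on the WT arrays. Replicates 2 and 3 of Tet1 KO were below every WT array, replicate 2 by the most, while replicate 1 lay within the WT range. The difference of -0.48 (SE 0.34, 95% interval -1.30 to 0.33) was -0.11 without Tet1 KO replicate 2, and leaving out Tet1 KO replicate 1 gave -0.77.

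The Mxd family, which pairs with Max and recruits Sin3 corepressors, showed no shared direction. Over its 12 probe sets 6 were higher and 6 lower in Tet1 KO. Mxd1, a family member known for its rise during myeloid differentiation, lies on chromosome 6 (86647044 to 86669234). Its brightest probe set, 1455104_at, read 7.001, 7.38 and 6.23 on the Tet1 KO arrays, against 6.90, 6.96 and 7.01 on the WT arrays. Tet1 KO replicate 2 lay above the narrow WT range, replicate 3 below it and replicate 1 within it. The difference of -0.09 (SE 0.30) was 0.24 without Tet1 KO replicate 3, and leaving out Tet1 KO replicate 2 gave -0.34. A second Mxd1 probe set read 6.15, 7.79 and 7.23 on the Tet1 KO arrays, against 6.48, 6.65 and 6.71 on the WT arrays. That difference of 0.44 (SE 0.40) was the highest positive one among the 26, and it was 0.08 when Tet1 KO replicate 2 was left out. When Tet1 KO replicate 1 was left out it was 0.90, with an unadjusted limma p of 0.00863 and an adjusted p of 0.457. The third Mxd1 probe set differed by less than 0.1 with an SE of 0.18.

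Mxi1, on chromosome 19 (53310128 to 53373293), encodes a repressor that competes with Myc for Max. Its brightest probe set, 1425732_a_at, read 8.39, 8.85 and 8.31 on the Tet1 KO arrays, against 8.32, 8.51 and 8.65 on the WT arrays. The difference was 0.03 (SE 0.20), and it was -0.14 without Tet1 KO replicate 2, while leaving out WT replicate 1 gave -0.06. At its second probe set Tet1 KO replicate 2 was again highest, at 8.69, and the difference was 0.32 with that array and 0.05 without it. Mxd3, on chromosome 13 (55325170 to 55329900), is the member of the family linked to proliferating cells. Its brightest probe set, 1438847_at, read 9.01, 9.04 and 9.36 on the Tet1 KO arrays, against 9.27, 8.86 and 9.02 on the WT arrays. The groups overlapped, with Tet1 KO replicate 3 highest and WT replicate 2 lowest. Its 3 probe sets differed by 0.09, 0.14 and -0.03, each with an SE of at most 0.21.

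Mxd4, on chromosome 5 (34176580 to 34187710), has 4 probe sets, and the brightest, 1434378_a_at, read 10.08, 10.33 and 10.56 on the Tet1 KO arrays, against 10.55, 10.52 and 10.09 on the WT arrays. Both groups covered nearly the same range, and the difference was -0.06 (SE 0.21, 95% interval -0.56 to 0.43). The other 3 probe sets gave -0.09, -0.38 and 0.23. At the one with -0.38, Tet1 KO replicate 2 read 7.43, above every WT array, while replicates 1 and 3 read 6.44 and 6.21, below every WT array at 7.10, 6.94 and 7.17. Without Tet1 KO replicate 2 that difference was -0.75, with an unadjusted limma p of 0.00326 and an adjusted p of 0.578.

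**Figure D2:**
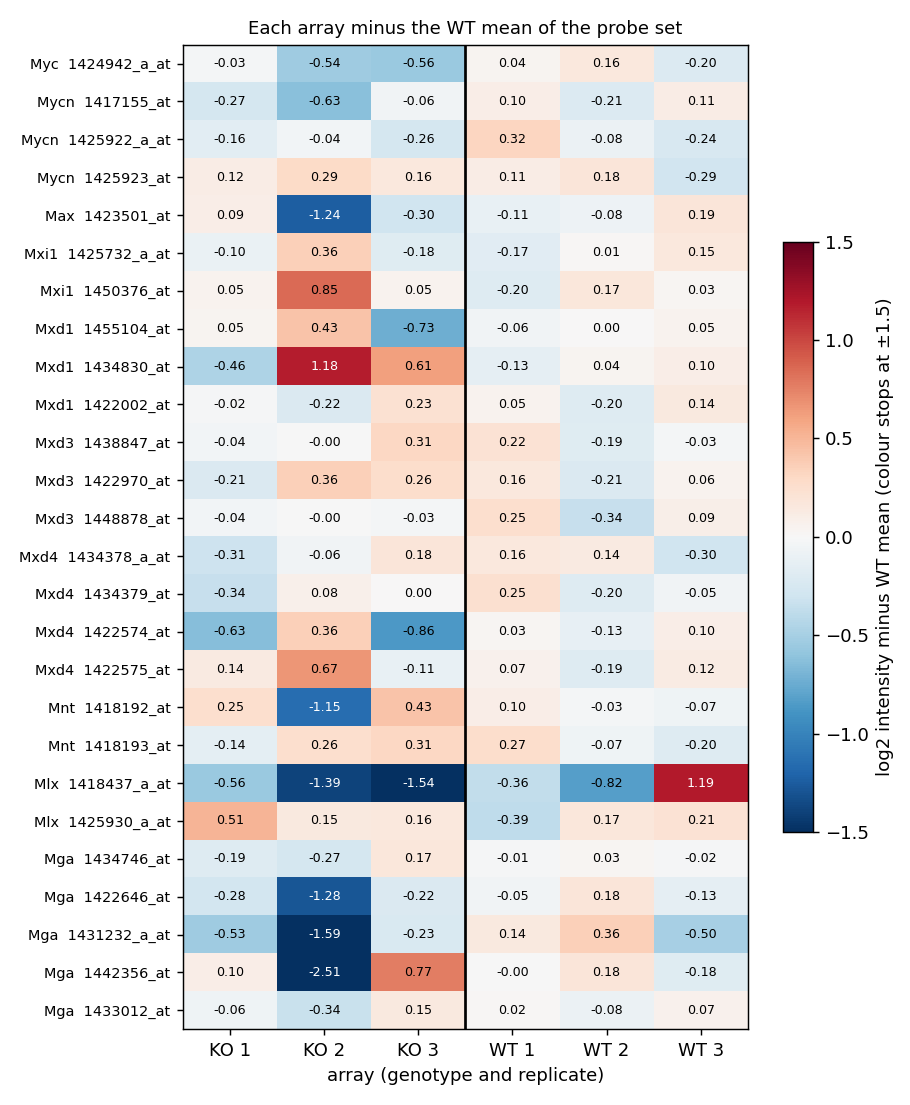
Each row is 1 of the 26 member probe sets and each column 1 array, Tet1 KO left of WT, and the colour and printed number give the log2 intensity minus the WT mean of that probe set. The lowest value, -2.51, is a Mga probe set on Tet1 KO replicate 2, and the highest are the brighter Mlx probe set on WT replicate 3, at 1.19, and an Mxd1 probe set on Tet1 KO replicate 2, at 1.18.

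Mnt and Mga are the large Max partners. Mnt, a widely expressed repressor that opposes Myc, lies on chromosome 11 (74830806 to 74845725). Its brightest probe set, 1418192_at, read 9.20, 7.80 and 9.37 on the Tet1 KO arrays, against 9.04, 8.92 and 8.88 on the WT arrays. Replicates 1 and 3 of Tet1 KO were above every WT array and replicate 2 was below every one. The difference of -0.16 (SE 0.41) was 0.34 without Tet1 KO replicate 2, and leaving out Tet1 KO replicate 3 gave -0.45. The second Mnt probe set gave 0.14 (SE 0.20).

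Mga, which carries both a T-box and a basic helix-loop-helix domain and works in a Polycomb-type repressor complex, lies on chromosome 2 (119872503 to 119970129). All of its 5 probe sets had a lower mean in Tet1 KO, none of them past the test. The brightest, 1434746_at, read 9.15, 9.07 and 9.50 on the Tet1 KO arrays, against 9.33, 9.37 and 9.32 on the WT arrays. Here the groups overlapped, and the difference was -0.10 (SE 0.17, 95% interval -0.50 to 0.30). The second brightest, 1422646_at, read 7.85, 6.85 and 7.91 on the Tet1 KO arrays, against 8.08, 8.31 and 7.999 on the WT arrays. It was the only 1 of the 26 member probe sets at which the groups did not overlap, against 16.2% of all probe sets in either direction and 6.29% in the lower direction. Its difference was -0.59 (SE 0.31, 95% interval -1.32 to 0.14, limma adjusted p = 0.686), and it was -0.25 without Tet1 KO replicate 2.

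The remaining Mga probe sets differed by -0.79 (SE 0.40), -0.55 (SE 0.79) and -0.09 (SE 0.17). At the first of these Tet1 KO replicate 2 read 5.38, against 6.47 to 7.33 on the WT arrays, and the difference was -0.38 without it and -1.06 without Tet1 KO replicate 3, with unadjusted limma p of 0.229 and 0.0421. At the second that array read 3.37, under its own brightest bacterial control of 4.87, while Tet1 KO replicates 1 and 3 read 5.99 and 6.66, against 5.70 to 6.07 on the WT arrays. The difference was 0.44 without that array. All 5 Mga probe sets were lowest on Tet1 KO replicate 2, and they share the RNA of that sample, so they do not count as separate observations.

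Mlx, on chromosome 11 (101086707 to 101092207), gave opposite signs at its 2 probe sets. The brighter, 1418437_a_at, read 6.52, 5.68 and 5.53 on the Tet1 KO arrays, against 6.71, 6.25 and 8.26 on the WT arrays. WT replicate 3 stood far above the other 5 arrays, and Tet1 KO replicate 1 lay above WT replicate 2. The means were 5.91 ± 0.53 in Tet1 KO and 7.07 ± 1.05 in WT (SD, n = 3 each), a difference of -1.16 (SE 0.54, 95% interval -2.46 to 0.14). Its unadjusted p of 0.0723 was the lowest of the 26, with a limma adjusted p of 0.686, and the difference was -0.57 without WT replicate 3 and -1.57 without WT replicate 2, with unadjusted limma p of 0.167 and 0.0289. The other Mlx probe set read 6.30, 5.94 and 5.95 on the Tet1 KO arrays, against 5.41, 5.96 and 6.01 on the WT arrays, a difference of 0.27 (SE 0.22). WT replicate 3 did not stand apart at this probe set, but WT replicate 1 was the lowest of the 6 arrays, and without it the difference was 0.08.

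**Figure D3:**
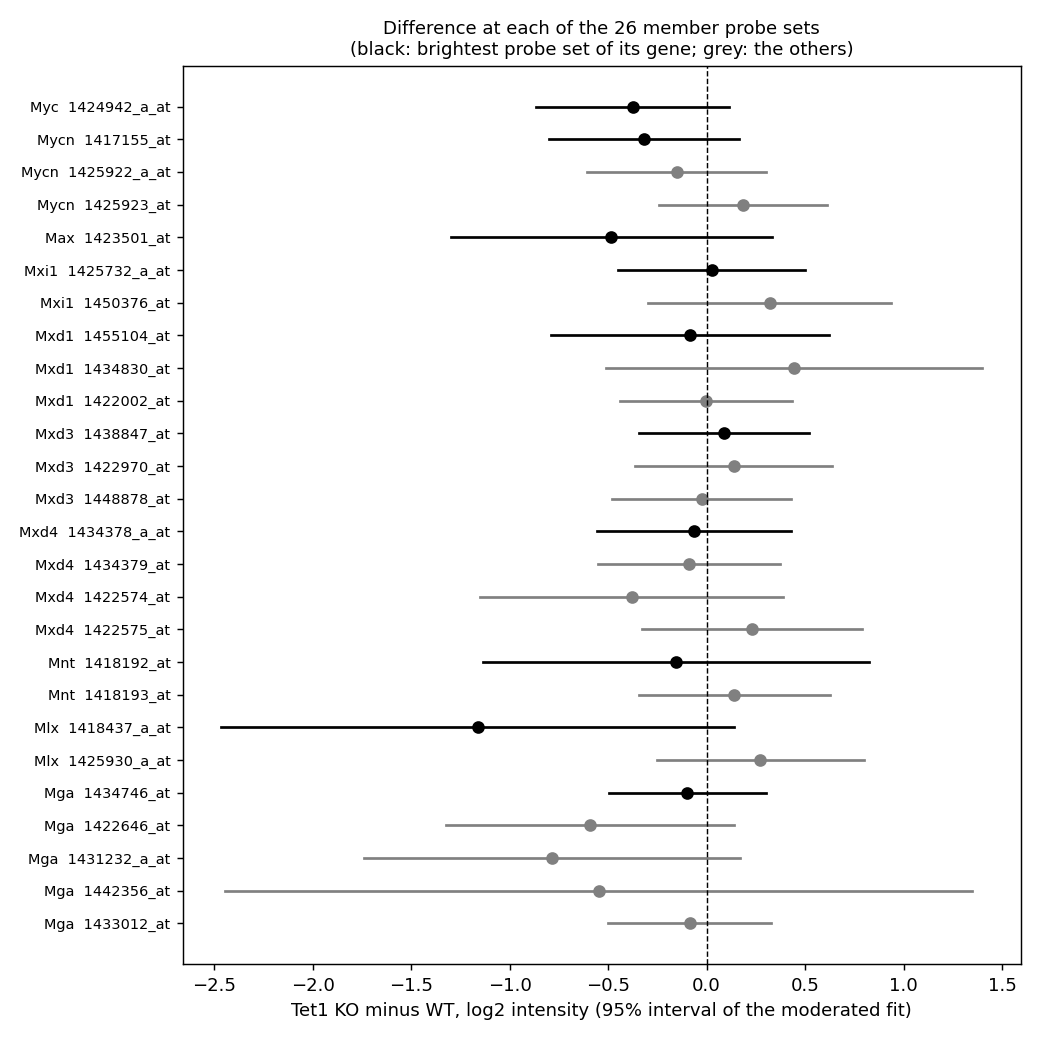
The difference of Tet1 KO minus WT on the log2 scale is shown for each of the 26 probe sets with its 95% interval from the moderated fit, in black for the brightest probe set of a gene and in grey for the others. All 26 intervals hold 0, and 18 lie within 1 log2 unit on either side.

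Among the probe sets, 9 had a higher and 17 a lower mean in Tet1 KO, and the median difference was -0.09. Over all probe sets 42.9% were lower and the median was 0.06, but the direction went with the level: of those with a mean of 8 or above 67.5% were lower, and of those under 6 it was 29.6%. The members followed the same order, with 6 of 8 lower at 8 or above, 8 of 11 lower between 6 and 8, where 61.8% of all probe sets were lower, and 3 of 7 lower under 6. The distance from a difference to either end of its 95% interval was 0.50 at the median and ran from 0.40 to 1.89. For 8 of the 26 the whole interval lay within a 1.5-fold change in either direction, and for the other 18 a change of that size was not excluded at this number of arrays.

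The balance of activating and repressing genes was also read per array, by role. Myc and Mycn, averaged at their brightest probe sets as deviations from the mean of the WT arrays, stood at -0.15, -0.58 and -0.31 on Tet1 KO replicates 1, 2 and 3, against 0.07, -0.02 and -0.05 on the WT arrays. The mean of Mxi1, Mxd1, Mxd3 and Mxd4 was -0.10, 0.18 and -0.10 on the Tet1 KO arrays, against 0.04, -0.01 and -0.03 on the WT arrays. The log ratio of the Myc genes to the Mxd genes, relative to WT, was -0.05, -0.77 and -0.20 on the Tet1 KO arrays, against 0.03, -0.02 and -0.02 on the WT arrays. It was furthest from 0 on Tet1 KO replicate 2. These means used only the brightest probe sets, and others differed from them in both directions. On that array Mycn stood at -0.63 at its brightest probe set and at -0.04 and 0.29 at the others. Mxi1 stood at 0.36 at its brightest and at 0.85 at its other probe set. The other repressors were not on the side of the Mxd genes there: the mean of Mnt and Mga was 0.03, -0.71 and 0.30 on the Tet1 KO arrays, against -0.04 to 0.04 on the WT arrays. These are descriptions with no test. Each WT array is part of the mean it is set against, which draws the WT values towards 0 but not those of Tet1 KO. On Tet1 KO replicate 2, 4 of the 8 member probe sets with a mean of 8 or above lay below all WT arrays, against 55.2% of all probe sets at that level.

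The spread within the genotypes was also unequal. The median SD of the member probe sets was 0.30 in Tet1 KO and 0.18 in WT, and 18 of 26 had the larger SD in Tet1 KO. Over all probe sets this share was 71.9%.

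The surrounding pathway was described from lists written from textbook knowledge, at the brightest probe set of each gene. The wider network, such as cofactors and turnover factors of Myc, had 27 measured genes. In Tet1 KO 13 had a higher mean and 14 a lower one, and the median difference was -0.01, against 56.5% higher and a median of 0.05 over all genes. At an unadjusted limma p under 0.05 there were 0 higher and 2 lower, against 6.73% of all genes in either direction, and 0 had an adjusted p under 0.05. Leaving out Tet1 KO replicate 2 gave a count of 5, against 8.01% of all probe sets in that fit. Leaving out WT replicate 3 gave a count of 1, against 4.51%. The 2 genes in the fit of all arrays were Ep400 and Ruvbl1, both of chromatin remodelling complexes that Myc recruits. Ep400 averaged 8.39 ± 0.12 in Tet1 KO and 8.92 ± 0.07 in WT (SD, n = 3 each), a difference of -0.53 (SE 0.15) without overlap. Ruvbl1 averaged 8.39 ± 0.31 in Tet1 KO and 9.03 ± 0.14 in WT (SD, n = 3 each), a difference of -0.64 (SE 0.20), also without overlap. In the list 3 genes were lower and 2 higher without overlap, against 1252 and 1868 of all 18193 genes. Of its 11 genes with a mean of 8 or above 27.3% were lower without overlap, against 12.8% of all genes at that level. Over all 73 probe sets of the list 40 were higher and 33 lower, with a median of 0.04, against 0.06 over all probe sets. Partners of the Ep400 and Ruvbl1 complexes, chosen after their values were seen, were not uniform, with -0.40 for Ruvbl2, 0.20 for Trrap, 0.25 for Kat5 and 0.24 for Actl6a. Next by p were Usp36, a deubiquitinase that stabilises Myc, at 0.46 (SE 0.21), and Mycs, an intronless Myc-like gene, at 0.36 (SE 0.17). Mycs averaged 4.53 in Tet1 KO and 4.17 in WT, on both sides of the background guide.

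Among genes known to be raised by Myc, 57 were measured, with 19 higher and 38 lower in Tet1 KO and a median of -0.09, against a median of 0.05 over all genes. Of these, 45 had a mean of 8 or above, where 30, or 66.7%, were lower with a median of -0.08, against 67.4% of all genes at that level with a median of -0.12. With an unadjusted limma p under 0.05 there were 1 higher and 2 lower, against 6.73% of all genes in either direction, and 0 passed adjustment. That count of 3 moved to 5 without Tet1 KO replicate 1, against 10.3% of all probe sets in that fit. It also moved to 5 without Tet1 KO replicate 2, against 8.01%, and to 0 without WT replicate 2, against 3.48%. The groups did not overlap in the lower direction for 9 of the 57, against 6.88% of all genes. Among those with a mean of 8 or above the share was 15.6%, against 12.8% of all genes at that level. Cdk4, a kinase of the G1 phase whose probe set is of the _x_at kind that can share probes with other transcripts, averaged 10.10 ± 0.13 in Tet1 KO and 10.55 ± 0.04 in WT (SD, n = 3 each), a difference of -0.45 (SE 0.14). Tk1, a thymidine kinase of S phase, differed by -0.76 (SE 0.29), and Fbl, the methyltransferase of nucleolar RNA, by -0.36 (SE 0.17). Tert, the catalytic part of telomerase, differed by 1.08 (SE 0.37), averaging 5.27 ± 0.51 in Tet1 KO and 4.19 ± 0.59 in WT (SD, n = 3 each), the WT mean being under the background guide of 4.39.

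Among 20 genes known to be lowered by Myc, 13 had a higher and 7 a lower mean in Tet1 KO, the median difference was 0.11, against 56.5% higher and a median of 0.05 over all genes, and 0 had an unadjusted limma p under 0.05. Without Tet1 KO replicate 1 there were 3, against 10.3% of all probe sets in that fit. By level, 4 of 5 were higher under 6, 4 of 8 between 6 and 8 and 5 of 7 at 8 or above, against 76.6%, 37.8% and 32.6% of all genes. The excess of higher genes was not seen over all 51 probe sets of the list. Of those 26 were higher and 25 lower, with a median of 0.003, against 0.06 over all probe sets. Cdh2, which encodes N-cadherin, and Cdkn2b, an inhibitor of cyclin D kinases, had the smallest p, with differences of 0.53 and 0.50, and both read under the background guide in both groups. Ndrg2 read 5.21 to 7.05 on the Tet1 KO arrays, against 6.36 to 9.56 on the WT arrays, a difference of -1.47 (SE 0.91), and the value of 9.56 stood alone on WT replicate 1. Klf6, a zinc finger factor, differed by 0.37 (SE 0.24). The E-box was present in the promoter windows of 14 of 50 Myc-raised genes, or 28.0%, in 3 of 11 Myc-lowered genes and in 2 of 24 genes of the wider network, against 8.09% of all 27025 genes with a window. Among genes with a window of at least 55.0% G and C, the lowest of the member windows, the share was 11.1%. The 3 lists were not filtered in this way, and their windows went down to 42.7%, 44.0% and 29.7% G and C. The Myc-raised and Myc-lowered lists were written from knowledge of Myc targets, so their shares are no independent evidence.

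**Figure D4:**
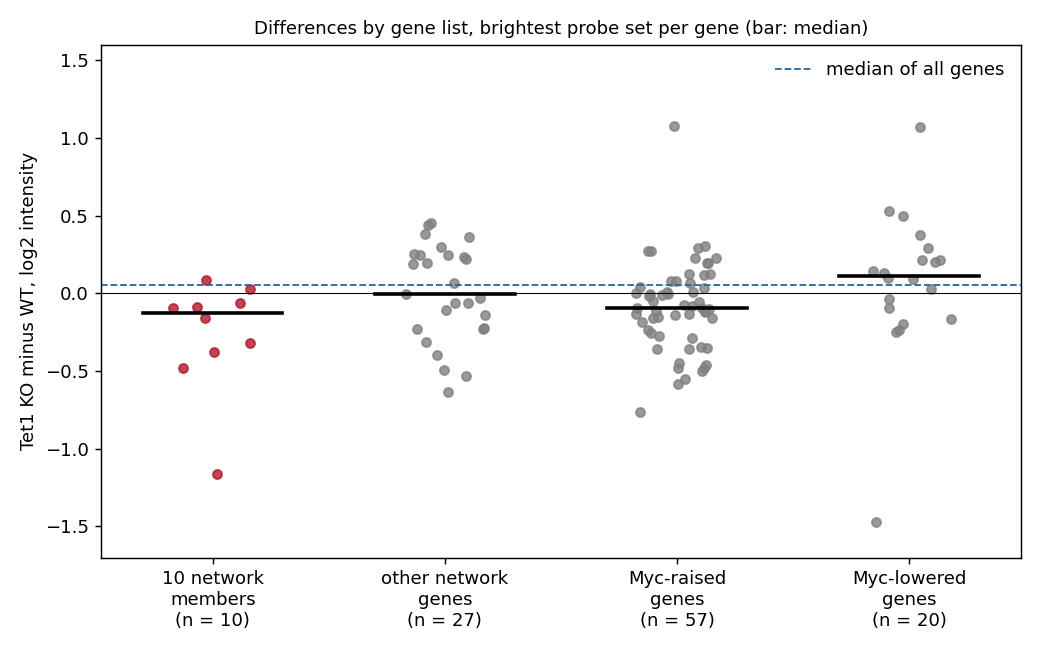
Each point is 1 gene at its brightest probe set, placed by its Tet1 KO minus WT difference in log2 intensity, for the 10 network members (red) and the 3 surrounding lists (grey), with the list median as a black bar and the median of all genes as a dashed line. The list medians run from -0.13 for the members to 0.11 for the Myc-lowered genes, and each of the 4 lists has genes on both sides of 0.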

How the data were processed

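The table deposited by the authors gives a log2 intensity for 45101 probe sets on each array. The scale was read from the values. Per the labels, cDNA was made from 125 ng of total RNA and hybridized on Affymetrix arrays. How background was corrected and arrays were normalized is not stated in those sources. The labelling kits named there are of a whole-transcript kind and the probe set names of a 3′ array, which was not resolved. Groups and replicate numbers were taken from the sample titles. After 64 controls were left out, Tet1 KO was compared with WT over 45037 probe sets in limma 3.58.1 (R 4.3.3, lmFit and eBayes, genotype as the only term, two-sided), with Benjamini-Hochberg adjustment at 0.05. An exact permutation test of 3 against 3 cannot go below p = 0.1. Genes were named from the platform annotation, where 34958 probe sets had 1 symbol. For counts of genes the probe set with the highest mean stood for its gene. No filter on dim probe sets was applied. All member probe sets are covered. Values per array are given for the brightest of each gene and for those without overlap or with an unadjusted p under 0.05, and the 4 genes with the smallest p are named from each list. Array values of other member probe sets were chosen after they were seen. The members and lists were chosen with earlier results of these data known. The fit was tested on simulated data. Alternatives were other normalizations, filters, units, variance models, a replicate block and leaving out each array. Same-numbered samples of the 2 groups did not deviate together, with correlations from -0.01 to 0.01. Figures were drawn with matplotlib 3.10.9.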

Additional observations from a re-analysis of the deposited data

How the results depend on the processing

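No member probe set passed the adjusted threshold under any of the 18 alternatives, where the lowest adjusted p was 0.457. Of 432 differences so recomputed, 400 kept the sign of the reported value and 1 moved by more than the larger SD between replicates, that of Mga with the mean of its probe sets, at -0.42. By construction, a difference cannot change under the level filters, the brightest probe set per gene, the intensity trend or robust estimation. The same holds for the replicate block and the Xist-low covariate. Such unchanged values are among the 400 and say nothing about stability. The sign held for 15 of the 26 probe sets in every fit that left out an array, and for 14 in every alternative run, among them Myc, Max and the brightest of Mycn and Mlx. The number of member probe sets with an unadjusted p under 0.05, 0 as reported, was 1 with array weights, against 7.53% of all probe sets, and ran from 0 to 2 over the fits that left out an array, against 3.46% to 10.3% of all probe sets. Calls over all probe sets, 0 as reported, were 1 with an intensity trend (limma adjusted p = 0.0476) and 1 with robust estimation added (0.0449), both at a probe set with no gene listed, and ran from 0 to 0 without each array. With the replicate number as a block the count over the members was 0 and that over all probe sets 0, with 2396 probe sets at an unadjusted p under 0.05 against 3065 without the block. Beside the number, the samples numbered 3 share the Xist-low state and the others the Xist-high state, and same-numbered samples did not deviate together. The Xist-low state as a covariate, chosen after seeing the data, gave 0 for both. For the wider network 2 genes had an unadjusted limma p under 0.05 as reported. The count was 5 with quantile normalization and 5 with cyclic loess, against 5.56% and 5.65% of all probe sets. It was 1 with the mean of probe sets, against 7.95% of all genes, and ran from 1 to 5 without single arrays. Over all probe sets the share ran from 3.46% to 10.3% without single arrays. For the Myc-raised genes the count was 3, then 5 with the mean of probe sets, and from 0 to 5 without single arrays. For the Myc-lowered genes it was 0, and from 0 to 3 without single arrays. These recounts of the lists were also chosen after seeing the data. The causes were not tested. The Mga probe set without overlap was the only one also under quantile normalization, median shift and cyclic loess.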
